A study of Mus musculus with 17 samples.

Results

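The genes described here are the 4 myogenic regulatory factors Myod1, Myog, Myf5 and Myf6, the satellite cell factor Pax7, and the MEF2 factors Mef2a, Mef2c and Mef2d. They were chosen by gene symbol and are 8 of the 36172 rows of the deposited expression table. All 8 passed the filter on low counts, beside 13965 genes in all. RNA came from the extensor digitorum longus (EDL), a fast muscle of the lower leg, of 17 aged mice. Of these, 7 received a Hand2 vector (3 males, 4 females) and 10 an empty vector (5 males, 5 females). Animals of 22 months were 1 male and 3 females with Hand2, and 1 male and 2 females with empty vector, and the others were 23 months old. The labels used here give no strain and no route, dose or time of vector delivery. Hand2 encodes a basic helix-loop-helix factor that sympathetic neurons need, and the title of the series is about keeping these neurons and preventing sarcopenia, the loss of muscle in old age. Every replicate is a library from an animal of its own.

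Myogenic regulatory factors are basic helix-loop-helix proteins that pair with E proteins, bind the E-box motif and switch on muscle genes. Pax7 keeps satellite cells, the stem cells of muscle, in their precursor state, Myf5 and Myod1 commit them to the muscle lineage, and Myog drives their differentiation. MEF2 proteins are MADS-box factors that bind AT-rich sites, work together with the myogenic factors and respond to calcium signals in the mature fibre. Myog is also known as a gene that fibres raise when they lose their nerve supply.

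Myog is the member whose level differed most between animals, so the 250 bases before its start are shown here. They come from RefSeq (GRCm38.p6, chr1:134289754-134290003, plus strand), with E-box letters (CANNTG) and the MEF2 core in capitals. The MEF2 core was searched as TA, then 4 bases that are each A or T, then TA, and both motifs read the same on either strand as a pattern.

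Myog: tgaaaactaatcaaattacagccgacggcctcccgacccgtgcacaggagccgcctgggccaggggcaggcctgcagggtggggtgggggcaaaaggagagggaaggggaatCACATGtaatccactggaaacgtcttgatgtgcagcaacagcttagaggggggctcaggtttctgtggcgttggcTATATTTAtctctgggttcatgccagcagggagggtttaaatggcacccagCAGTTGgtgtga

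The 2 Myog E-boxes begin 138 and 12 bases before the start and the MEF2 core 63 bases before it. RefSeq windows of 300 bases, from 250 before to 50 after a start, were matched for 6 of the 8 genes, with 3 starts for Mef2c and 8 windows in all. Of 32851 such windows of all mouse genes, 72.3% hold an E-box, 9.32% a MEF2 core and 7.01% both, so an E-box alone is common. Among the MEF2 genes, a core lies across the start of Mef2a (from base -1 to base 7) and 145 bases before the first start of Mef2c. Both are shown with 10 bases on each side, the core in capitals, to set beside that of Myog.

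Mef2a: gcctgactccTAAAAATAgccccggtgt

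Mef2c: cttggaaatgTAATTTTAaagcctgtgt

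The window of the first Mef2c start holds 2 E-boxes, and that of the third holds 1. No E-box and no MEF2 core was found in the windows of Mef2d, Pax7 and Myf5. These are matches of letters only.

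Per transcript length the 8 genes spanned a wide range of levels. CPM, the counts of a gene scaled to library size, was divided by the median length of each gene's protein-coding transcripts in the GENCODE M21 annotation of mm10. The median over the 17 animals was 238 CPM per kb for Mef2c, 91.6 for Myf6, 55.7 for Mef2d and 19.8 for Myod1. It was 7.40 CPM per kb for Mef2a, 2.98 for Myog, 0.828 for Myf5 and 0.335 for Pax7. Over the animals, Mef2c and Myod1 overlapped with none of the genes next to them in this order. Myf6 (67.3 to 169 CPM per kb) overlapped slightly with Mef2d (50.9 to 69.2). Myog (1.27 to 16.5) overlapped with Mef2a (5.10 to 10.3), with Myf5 (0.653 to 1.33) and, beyond its neighbours, with Myod1 (11.5 to 28.4). The range of Myf5 in turn met that of Pax7 (0.0856 to 0.739). These levels depend on the transcript chosen: with its longest transcript Mef2c had a median of 133 CPM per kb and with its shortest 707, and Mef2d had 27.2 and 83.2. The order of the 8 medians was the same with the shortest transcript of every gene and with the longest. Myf6 (also called MRF4) is known as the myogenic factor that adult fibres keep expressing, and it was the highest of the 4 in every animal.

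**Figure D1:**
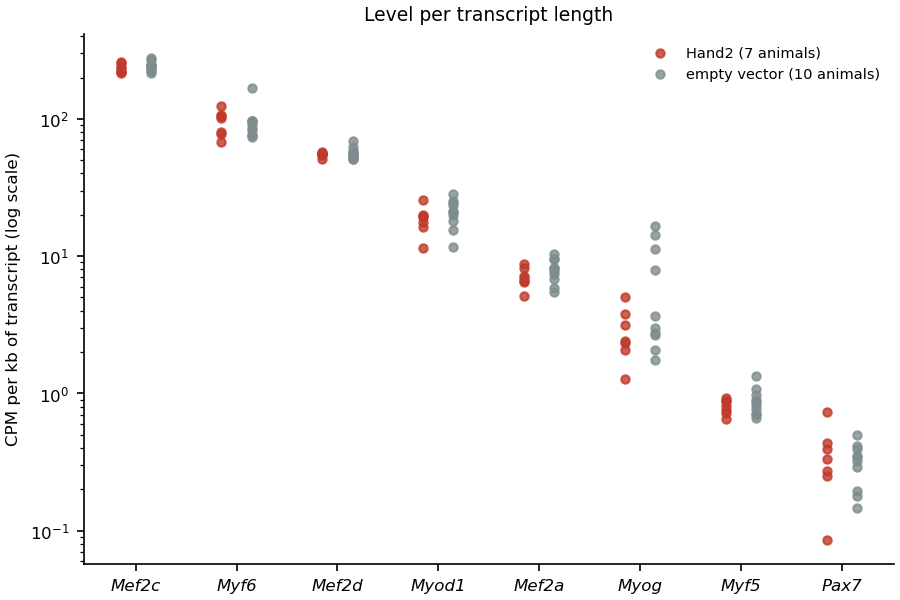
Level per transcript length of each gene in every animal, in CPM per kb on a log axis, with Hand2 animals (red) left of empty-vector animals (grey). Genes run from the highest median (Mef2c, 238 CPM per kb) to the lowest (Pax7, 0.335 CPM per kb), and Myog has the longest spread.

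Variation between animals did not follow the level alone. Over all 17 animals the coefficient of variation of the CPM was 7.59% for Mef2c and 8.04% for Mef2d, 19.4% for Mef2a, 19.7% for Myf5, 23.6% for Myod1 and 25.5% for Myf6. It was 45.7% for Pax7 and 91.6% for Myog, whose highest animal stood 12.98-fold above its lowest. Estimated counts behind these values were low for Pax7 (10 to 57.6 per library) and Myf5 (28 to 86), and higher for Myog (41 to 766). Library totals ran from 19181200 to 30942800 estimated counts, with a median of 26091200.

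The libraries matched skeletal muscle. Summed levels of 6 skeletal muscle genes, not all of them particular to fast fibres, ran from 63323 to 82974 CPM in Hand2 animals. In empty-vector animals they ran from 63235 to 77944 CPM. Summed levels of 8 slow-fibre genes were 226 to 1590 CPM in Hand2 animals and 209 to 1598 CPM in empty-vector animals. Hand2 itself had 1.02 to 26.3 CPM in Hand2 animals and 0.07 to 0.92 CPM in empty-vector animals, so the ranges did not overlap; its log2 fold change of 3.63 ± 0.57 did not pass either (edgeR adjusted p = 0.124). In whole muscle, fewer cells of a type and less RNA per cell cannot be told apart.

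None of the 8 genes passed the test between Hand2 and empty vector, alone or within either sex, and neither did any other gene (0% of 13965 called in each comparison, edgeR quasi-likelihood test, Benjamini-Hochberg adjusted). The only member under an unadjusted p of 0.05 was Myog, over both sexes and in females, where 5.05% and 5.9% of all genes were. In males no member was, where 2.84% of all genes were. Over both sexes no member had vector groups that did not overlap (0.0215% of all genes), and neither did any in females (1.66%). Of the 8 log2 fold changes over both sexes 7 were below 0, with a median of -0.10, where 51.7% of all genes were below 0. Apart from Myog, the fold changes within females ran from -0.20 ± 0.16 (Mef2a) to 0.50 ± 0.42 (Pax7), and those within males from -0.24 ± 0.26 (Myod1) to 0.02 ± 0.08 (Mef2d).

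Pax7 and Myf5, the genes of the satellite cell state and of its commitment, gave small and uncertain differences. Pax7 had 1.27, 1.496 and 1.66 CPM in Hand2 males, against 1.22, 1.32, 1.49, 1.58 and 1.89 CPM in empty-vector males. In females it had 0.32, 0.95, 1.03 and 2.80 CPM with Hand2, against 0.56, 0.67, 0.73, 1.10 and 1.30 CPM with empty vector. One Hand2 female, replicate 5, was the highest of all 17 animals for Pax7 and another, replicate 3, the lowest. The log2 fold change of Hand2 over empty vector was 0.25 ± 0.30 (SE) over both sexes, with a 95% interval of -0.39 to 0.88 (edgeR adjusted p = 0.943). Without Hand2 replicate 5 it was -0.12, so that 1 animal set its direction. Males had 1.22 to 1.89 CPM (median 1.49) and females 0.32 to 2.80 CPM (median 0.95), a log2 difference of 0.56 ± 0.30 that did not pass (edgeR adjusted p = 0.290). Leaving out Hand2 replicate 5 brought this difference to 0.84 and past the threshold (edgeR adjusted p = 0.0359).

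Myf5 stayed within 1.36 to 1.92 CPM in Hand2 animals (median 1.70) and 1.38 to 2.77 CPM in empty-vector animals (median 1.77). The ranges overlapped almost wholly, and the log2 fold change was -0.14 ± 0.15 (interval -0.45 to 0.17, edgeR adjusted p = 0.935). Myf5 lies on chr10 (107482908 to 107486134 in mm10, minus strand), 6725 bases from Myf6 (107492860 to 107494729, same strand). Their levels per kb were far apart, and after group means were removed their log2 CPM had a Pearson correlation of 0.12 over the 17 animals (Spearman's rho 0.083, permutation p = 0.764 and 0.780, adjusted p = 0.958 and 0.911 over 28 pairs; r was -0.03 without the 2 animals farthest from the median of Myf5).

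Myod1, the commitment factor that is higher in fast than in slow muscle, was the only member whose vector groups did not overlap within a sex. It had 32.8, 35.9 and 36.4 CPM in Hand2 males, against 37.2, 39.0, 40.0, 44.0 and 46.7 CPM in empty-vector males. Every Hand2 male was below every empty-vector male, by a narrow gap, and 2.64% of all genes separated in males. The log2 fold change in males was -0.24 ± 0.26 (interval -0.78 to 0.31, edgeR adjusted p = 1). In females Myod1 had 21.3, 30.3, 36.8 and 48.1 CPM with Hand2, against 21.6, 28.9, 33.6, 45.6 and 52.8 CPM with empty vector, with full overlap. Males were closer together, at 39.0 ± 4.50 CPM (SD, n = 8), than females, at 35.5 ± 11.3 CPM (SD, n = 9).

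Myog had the largest fold change of the 8 genes between vectors and between sexes. It had 1.90, 3.47 and 5.65 CPM in Hand2 males, against 2.64, 3.09, 4.00, 4.13 and 4.45 CPM in empty-vector males. In females it had 3.10, 3.60, 4.75 and 7.60 CPM with Hand2, against 5.48, 11.9, 16.9, 21.5 and 24.7 CPM with empty vector. Empty-vector females were the high group, and only the lowest of them, replicate 1, reached the range of another group. Hand2 males averaged 3.68 ± 1.88 CPM (SD, n = 3) and empty-vector males 3.66 ± 0.765 CPM (SD, n = 5), while Hand2 females averaged 4.76 ± 2.01 CPM (SD, n = 4) and empty-vector females 16.1 ± 7.64 CPM (SD, n = 5).

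**Figure D2:**
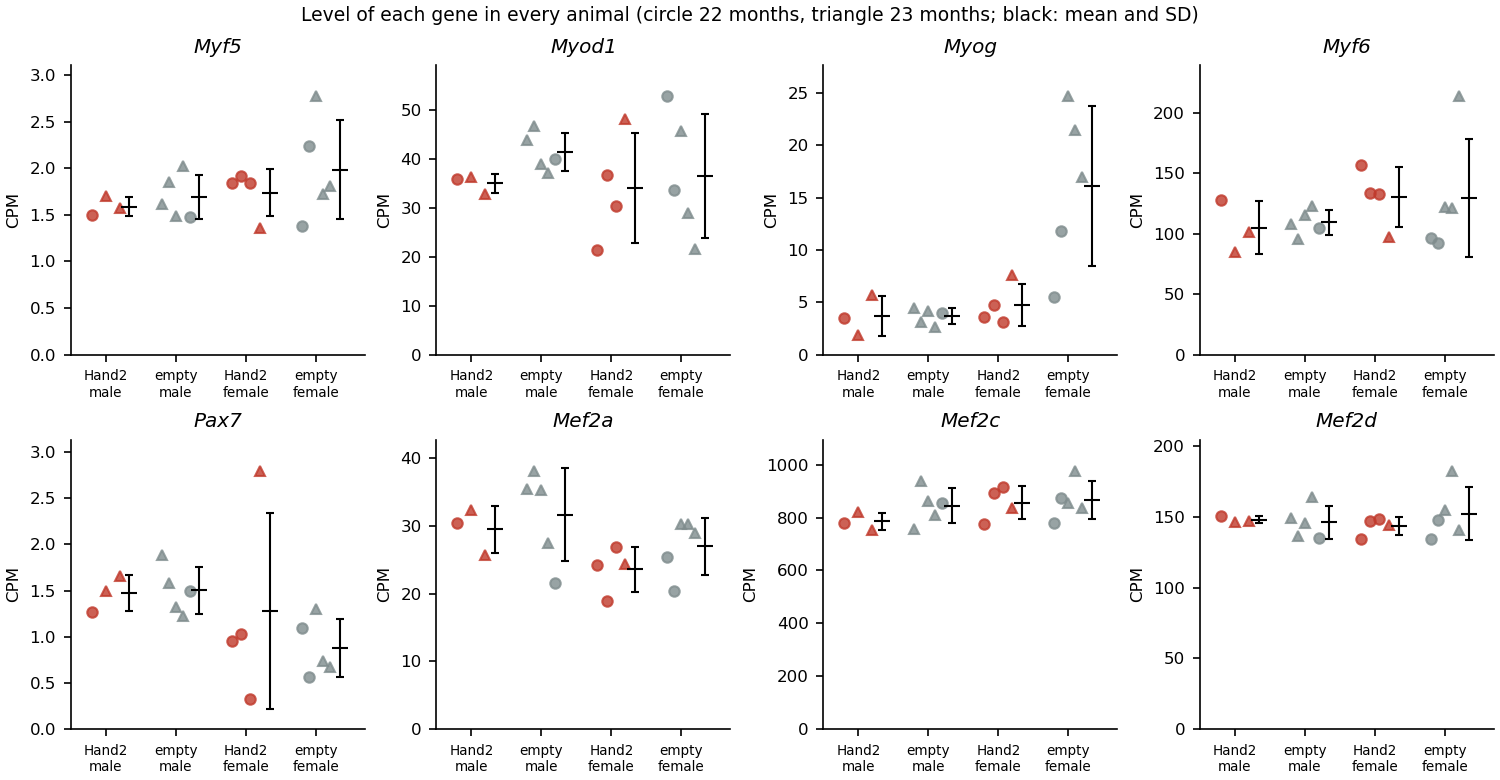
CPM of each gene (vertical axis, from 0) in every animal of the 4 vector-by-sex groups, with Hand2 in red and empty vector in grey, circles for 22 months and triangles for 23 months, and the mean with SD in black. In the Myog panel the 3 empty-vector females of 23 months sit between 16.9 and 24.7 CPM and all males sit at 5.65 CPM or lower.

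For Myog the log2 fold change of Hand2 over empty vector in females was -1.77 ± 0.40, with an interval of -2.62 to -0.93. By unadjusted p (0.000473, edgeR) it ranked 6 of 13965 genes, and its adjusted p was 0.783. DESeq2, an alternative tool, gave -1.76 ± 0.37 and called it (adjusted p = 0.0100), as 1 of 7 genes it called in females (0.0501% of those tested). In males the fold change was -0.01 ± 0.45 with an interval of -0.95 to 0.94, so the estimate in females lay outside it. The difference between the 2 effects, males minus females, was 1.76 ± 0.59 (interval 0.52 to 3.01) and did not pass (edgeR adjusted p = 0.9997; 0% of genes called, and 3.39% under an unadjusted p of 0.05). Over both sexes the log2 fold change was -0.99 ± 0.38 (edgeR adjusted p = 0.921). Hand2 itself had 1.02 to 3.22 CPM in Hand2 females and 1.25 to 26.3 CPM in Hand2 males. The part of the Hand2 level in the Myog difference was not tested.

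The 2 ages were looked at apart. Among females of 22 months, Myog had 3.10, 3.60 and 4.75 CPM with Hand2, against 5.48 and 11.9 CPM with empty vector, so these groups did not overlap, as was true of 27.9% of all genes in so small a comparison. All 3 empty-vector females of 23 months were above both of 22 months, where 28.8% of all genes separated. At 23 months the single Hand2 female had 7.60 CPM, against 16.9, 21.5 and 24.7 CPM in the 3 empty-vector females. Those 3 females also had summed levels of 7 immediate-early genes, such as Fos and Junb, of 1132, 406 and 123 CPM. The other 2 empty-vector females had 60.6 and 106 CPM, and Hand2 females 42.4 to 193 CPM. The part of age and of these early genes in the Myog difference was not tested. Without the 3 animals the log2 fold change of Myog was -0.88 ± 0.41 in females (edgeR adjusted p = 0.728) and -0.40 ± 0.29 over both sexes (edgeR adjusted p = 0.848), with 0% of genes called in either.

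**Figure D3:**
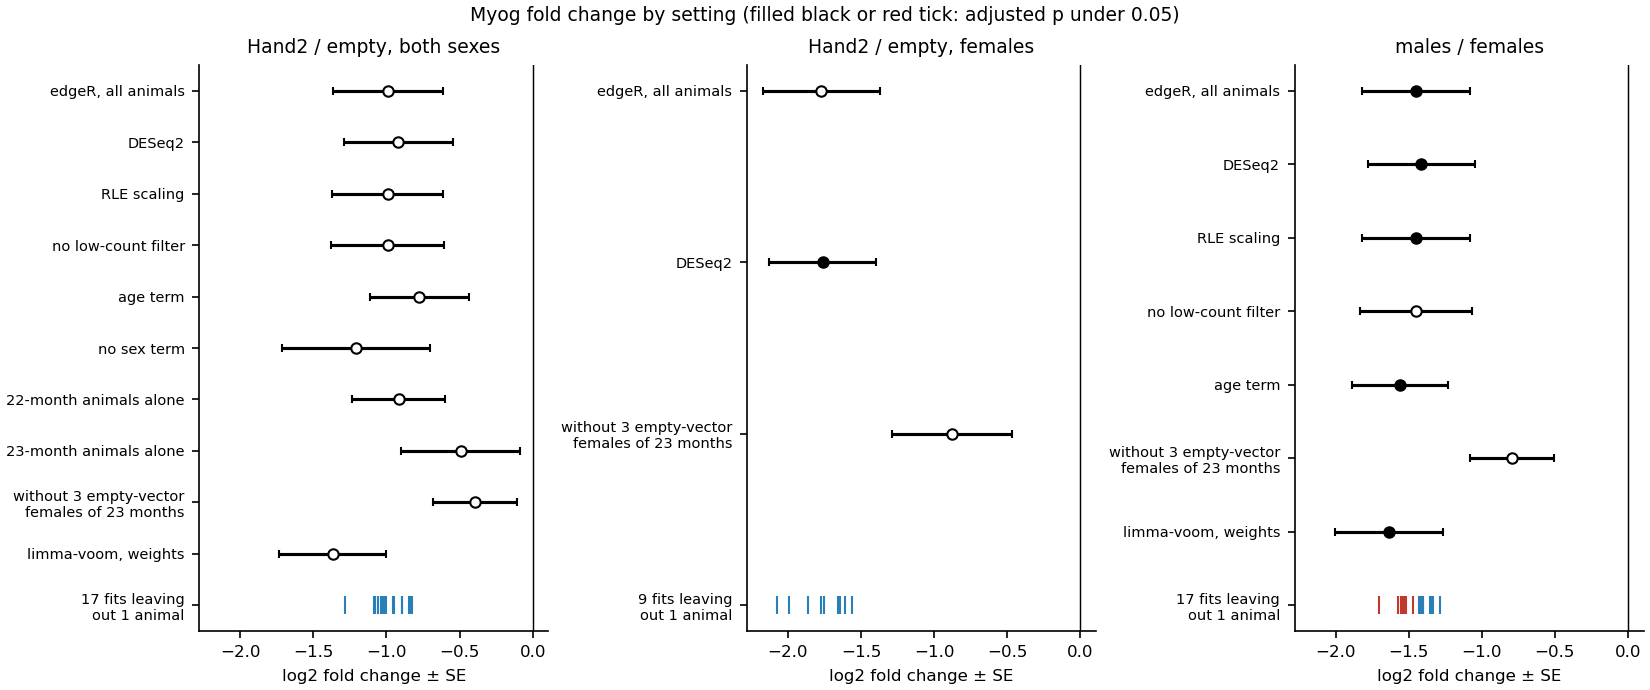
Log2 fold change of Myog with its SE (horizontal axis) under each setting, for Hand2 over empty vector in both sexes, the same in females, and males over females; filled black points and red ticks have an adjusted p under 0.05. All points lie below 0, and those without the 3 empty-vector females of 23 months lie nearest to 0 in each panel.

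Between the sexes Myog was the 1 member that passed. Males had 1.90 to 5.65 CPM (median 3.73) and females 3.10 to 24.7 CPM (median 7.60). The log2 difference of males over females, with vector as a term, was -1.45 ± 0.37 (interval -2.22 to -0.68, edgeR adjusted p = 0.0323), and 5.63% of all genes were called between the sexes, 2.72% as lower in males. DESeq2 called it too (adjusted p = 0.00353), with 9.14% of genes called. Myog and Mef2a were the members under an unadjusted p of 0.05, where 21.6% of all genes were, and no member separated males from females entirely (0.838% of all genes). All 5 empty-vector males were below all 5 empty-vector females, a comparison in which 3.54% of all genes separated, whereas Hand2 males and Hand2 females overlapped. The call ended without the 3 empty-vector females of 23 months (-0.79 ± 0.29, edgeR adjusted p = 0.187), where 2.07% of genes were called and no member was. It also ended in 9 of 17 fits that left out 1 animal, with adjusted p from 0.00989 to 0.0719 over the 17. The animals concerned were Hand2 replicate 6 and each empty-vector animal from replicate 3 to replicate 10, and without them in turn the log2 difference ran from -1.28 to -1.43. The other members had log2 differences between the sexes from -0.27 ± 0.15 (Myf6, edgeR adjusted p = 0.320) to 0.56 ± 0.30 (Pax7).

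Myf6 showed no difference over all animals but had fold changes of opposite sign at the 2 ages. It had 85.0 to 157 CPM in Hand2 animals (median 128) and 92.7 to 214 CPM in empty-vector animals (median 112), and the log2 fold change was -0.02 ± 0.15 (edgeR adjusted p = 0.994). At 22 months it had 128, 133, 134 and 157 CPM with Hand2, against 92.7, 96.7 and 105 CPM with empty vector. All 4 Hand2 animals were above all 3 empty-vector animals, where 12.7% of all genes separated at that age, and the fold change among these 7 animals was 0.49 ± 0.09 (edgeR adjusted p = 0.138). At 23 months it had 85.0, 97.5 and 102 CPM with Hand2, against 95.9 to 214 CPM (median 122) with empty vector. There the groups overlapped and the fold change was -0.38 ± 0.19 (edgeR adjusted p = 0.632). Within the Hand2 group all 3 animals of 23 months were below all 4 of 22 months, as happened for 16% of genes in either direction. Those of 23 months were 1 female and 2 males, with library totals of 19181200 to 22051700 estimated counts. Those of 22 months were 3 females and 1 male, with 25410200 to 30716000. Age cannot be told apart from depth within this group, and sex was split unevenly. A model with vector, sex, age and a vector-by-age term was chosen after the Myf6 values were seen. Its vector effect on Myf6 at 23 months minus that at 22 months was -0.87 ± 0.26 on the log2 scale (interval -1.41 to -0.33). This did not pass (edgeR adjusted p = 0.118), in a fit where 0.38% of all genes were called and 16.4% had an unadjusted p under 0.05. DESeq2 called it (-0.85, adjusted p = 0.0223), in a fit with far more genes called than in edgeR, as counted below. With edgeR it was called without empty-vector replicate 5, the female with 214 CPM (-0.75, adjusted p = 0.0307). That was the only 1 of 17 fits without 1 animal to call it, and those fits gave edgeR adjusted p up to 0.311. They called 0 to 156 genes. For Myog the same term was 0.27 ± 0.70 (edgeR adjusted p = 0.890).

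Mef2c and Mef2d had the lowest coefficients of variation of the 8 genes, as given above. Mef2c, the most abundant member in this muscle, had 753 to 915 CPM in Hand2 animals (median 821) and 758 to 978 CPM in empty-vector animals (median 856). Its log2 fold change over both sexes was -0.06 ± 0.05, with a 95% interval of -0.17 to 0.05. Within males it was -0.10 ± 0.08 (interval -0.27 to 0.06) and within females -0.02 ± 0.07 (interval -0.17 to 0.13). Mef2d had 134 to 151 CPM in Hand2 animals (median 147) and 135 to 183 CPM in empty-vector animals (median 147), with a fold change of -0.04 ± 0.06 and an interval of -0.16 to 0.08. Over both sexes the adjusted p was 0.934 for Mef2c and 0.957 for Mef2d (edgeR). Mef2c is also expressed in endothelium, and the summed level of 5 endothelial genes was 328 to 481 CPM in Hand2 animals and 326 to 509 CPM in empty-vector animals.

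Mef2a had 18.9 to 32.4 CPM in Hand2 animals (median 25.7) and 20.4 to 38.2 CPM in empty-vector animals (median 29.6). The log2 fold change was -0.15 ± 0.11 (interval -0.39 to 0.08, edgeR adjusted p = 0.921). Males had 21.6 to 38.2 CPM (median 31.4) and females 18.9 to 30.2 CPM (median 25.4), a log2 difference of 0.27 ± 0.11 with an interval of 0.03 to 0.50. This did not pass (edgeR adjusted p = 0.170), but without empty-vector replicate 10, a male with 21.6 CPM, it did (0.33, adjusted p = 0.0440). Of 50-base stretches of Mef2a transcripts, 1.91% also occur in transcripts of other genes, most of all A130077B15Rik, so some Mef2a reads could have been split. The other 7 genes share none with any gene.

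**Figure D4:**
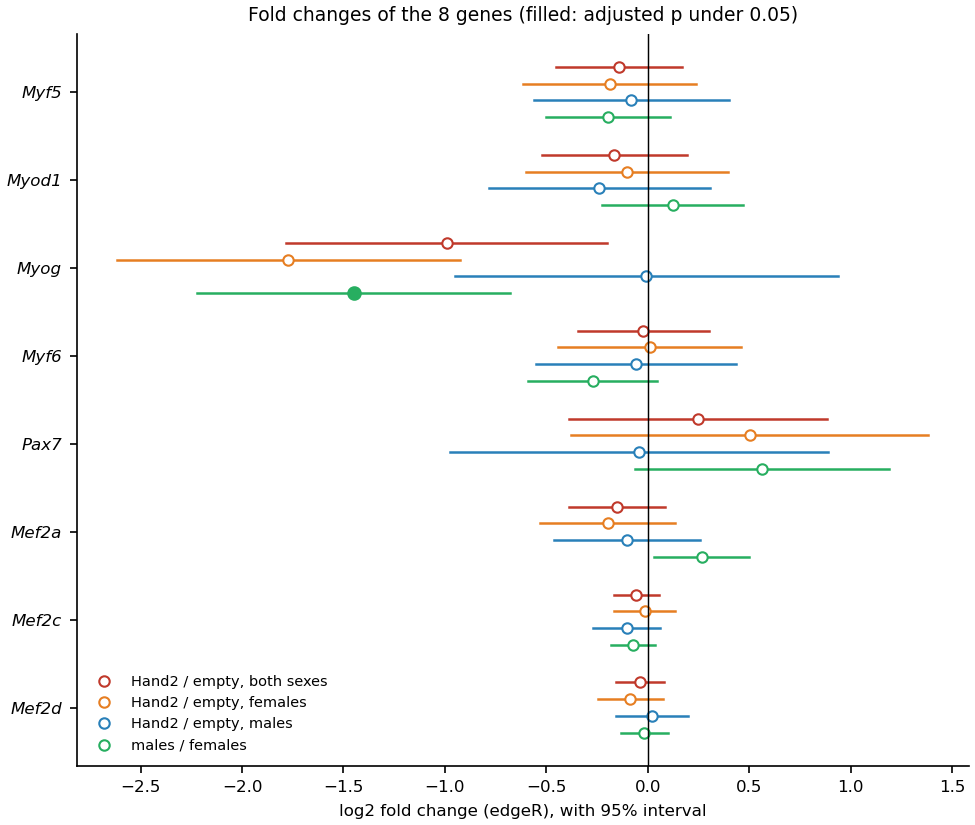
Log2 fold change of each gene with its 95% interval for Hand2 over empty vector in both sexes, in females and in males, and for males over females; a filled point has an adjusted p under 0.05. The single filled point is Myog between the sexes, at -1.45, and the intervals of Mef2c and Mef2d are the shortest.

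Genes around the members were read from 7 lists, with Hdac4 in 2 of them. Between Hand2 and empty vector none of them passed the test. The E proteins Tcf3, Tcf4 and Tcf12, the partners of the myogenic factors, had log2 fold changes of 0.03 ± 0.09, -0.13 ± 0.05 and -0.10 ± 0.06. The HDAC4-myogenin list holds genes that lie up or down the pathway by which denervated fibres raise Myog, such as acetylcholine receptor subunits and the ubiquitin ligases Trim63 and Fbxo32. Of its 18 genes 15 were below 0, where 51.7% of all genes were. The median was -0.20, beside a median of -0.0041 over all genes. In females the median was -0.36 and in males -0.02. Ankrd1, a stress-responsive sarcomere protein, had a fold change of -0.95 ± 0.31 (edgeR adjusted p = 0.921), Hdac4, the deacetylase that represses MEF2, -0.28 ± 0.14, and Chrna1, the receptor's alpha subunit, -0.15 ± 0.12. Without the 3 empty-vector females of 23 months 11 of the 18 were below 0 and the median was -0.06. With all animals the summed level of the list overlapped, at 1138 to 2301 CPM in Hand2 animals and 1059 to 2282 CPM in empty-vector animals.

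Genes of that list also differed between the sexes. Of the 18 genes 15 had log2 differences of males over females below 0, with a median over the list of -0.31. Of these, 4 were called lower in males, where 2.72% of all genes were. Cdkn1a, a cell cycle inhibitor, averaged 45.4 ± 4.66 CPM in Hand2 males and 58.9 ± 47.9 CPM in empty-vector males, and 105 ± 20.2 CPM in Hand2 females and 169 ± 55.6 CPM in empty-vector females. Its log2 difference was -1.39 ± 0.30 (edgeR adjusted p = 0.0148), beside -1.002 ± 0.23 for the stress gene Gadd45a, -0.94 ± 0.22 for Trim63 and -1.09 ± 0.31 for Ankrd1 (edgeR adjusted p = 0.0187, 0.0240 and 0.0499). Without the 3 empty-vector females of 23 months none of the 4 passed, and 14 of the 18 were below 0. The differences were then -1.13 for Cdkn1a, -0.60 for Gadd45a, -0.61 for Trim63 and -0.97 for Ankrd1 (edgeR adjusted p = 0.131, 0.0578, 0.140 and 0.195). All 8 genes of a slow-fibre list were also called lower in males, with or without those females. Without those females 2.07% of all genes were called in either direction. Their summed level was 209 to 423 CPM in males and 361 to 1598 CPM in females, and its part in the sex difference of Myog was not tested.

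Among 10 measured inhibitors of the myogenic factors, 9 had log2 differences of males over females above 0. Of these, 2 were called higher in males, and none of the 10 was called lower, where 5.63% of all genes were called. Mdfi, which holds myogenic factors in the cytoplasm, averaged 2.08 ± 1.36 CPM in Hand2 males and 1.65 ± 0.722 CPM in empty-vector males, and 0.539 ± 0.196 CPM in Hand2 females and 0.273 ± 0.0964 CPM in empty-vector females. Its log2 difference was 2.30 ± 0.30 (edgeR adjusted p = 0.000134), and 2.11 without the 3 females of 23 months, where it still passed (edgeR adjusted p = 0.00427). The female levels of Mdfi rest on few counts, as 3 counts correspond to 0.0967 to 0.157 CPM. Heyl, a Notch effector, had 0.39 ± 0.11 (edgeR adjusted p = 0.0382) and did not pass without those females, at 0.38 (adjusted p = 0.105). In the fit without them 2.07% of all genes were called. Msc, another repressor that competes at the E-box, had the highest fold change of Hand2 over empty vector in this list, 0.67 ± 0.29 (edgeR adjusted p = 0.921).

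Of 9 further satellite cell genes, Cdh15 (M-cadherin) alone passed between the sexes, at -0.37 ± 0.08 (edgeR adjusted p = 0.00866), and it passed also without the 3 females (-0.38, adjusted p = 0.0472). The satellite list summed to 290 to 345 CPM in Hand2 animals and 293 to 389 CPM in empty-vector animals. Of 9 fusion and embryonic genes, the embryonic myosin Myh3 alone was called, lower in males, at -0.63 ± 0.14 (edgeR adjusted p = 0.0125). Without the 3 females it was -0.60, not past the threshold (edgeR adjusted p = 0.0913). Of all genes 5.63% were called between the sexes, 2.72% as lower in males, and 2.07% in either direction without the 3 females.

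Of 16 regulators of MEF2 activity, Mapk14, the p38 kinase that activates MEF2, was higher in males (0.27 ± 0.05, edgeR adjusted p = 0.00382). Sik1, a kinase that holds class II deacetylases off MEF2, was lower (-2.01 ± 0.55, edgeR adjusted p = 0.0466). No other of the 16 was called between the sexes, where 5.63% of all genes were. Without the 3 females Mapk14 had 0.25 and Sik1 -0.72, and neither passed (edgeR adjusted p = 0.0516 and 0.0650), where 2.07% of all genes were called. None of 11 MEF2 targets passed in either comparison. Between vectors 9 of them were below 0 over both sexes, but 4 in males alone and 6 without the 3 females, and the medians were -0.05, 0.04 and -0.01. Xirp1, a repair protein of the sarcomere, was the farthest from 0 between vectors, at -1.14 ± 0.35 (edgeR adjusted p = 0.921).

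Markers of other cell types were read too. Between Hand2 and empty vector none was called among 5 fibroadipogenic, 5 macrophage, 4 B-cell, 4 Schwann cell, 2 measured red-cell, 3 adipocyte and 5 endothelial genes. Summed levels of these groups overlapped between the vectors, as for the macrophage genes, with 51.7 to 74.3 CPM in Hand2 animals and 31.01 to 88.9 CPM in empty-vector animals. Between the sexes all 3 adipocyte genes were called lower in males, where 2.72% of all genes were, and no other of these markers was called. Their log2 differences were -1.60 ± 0.31 for the lipid droplet gene Cidec, -1.22 ± 0.29 for Adipoq, which encodes adiponectin, and -1.29 ± 0.31 for the lipid droplet gene Plin1 (edgeR adjusted p = 0.00576, 0.0230 and 0.0240). Their summed level was 2.16 to 7.95 CPM in males and 8.54 to 27.8 CPM in females, with no overlap. Without the 3 empty-vector females of 23 months the differences were -1.41, -1.39 and -1.31, and none passed (edgeR adjusted p = 0.0893, 0.0572 and 0.0898). The part of fat in the sex difference of Myog was not tested.

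**Figure D5:**
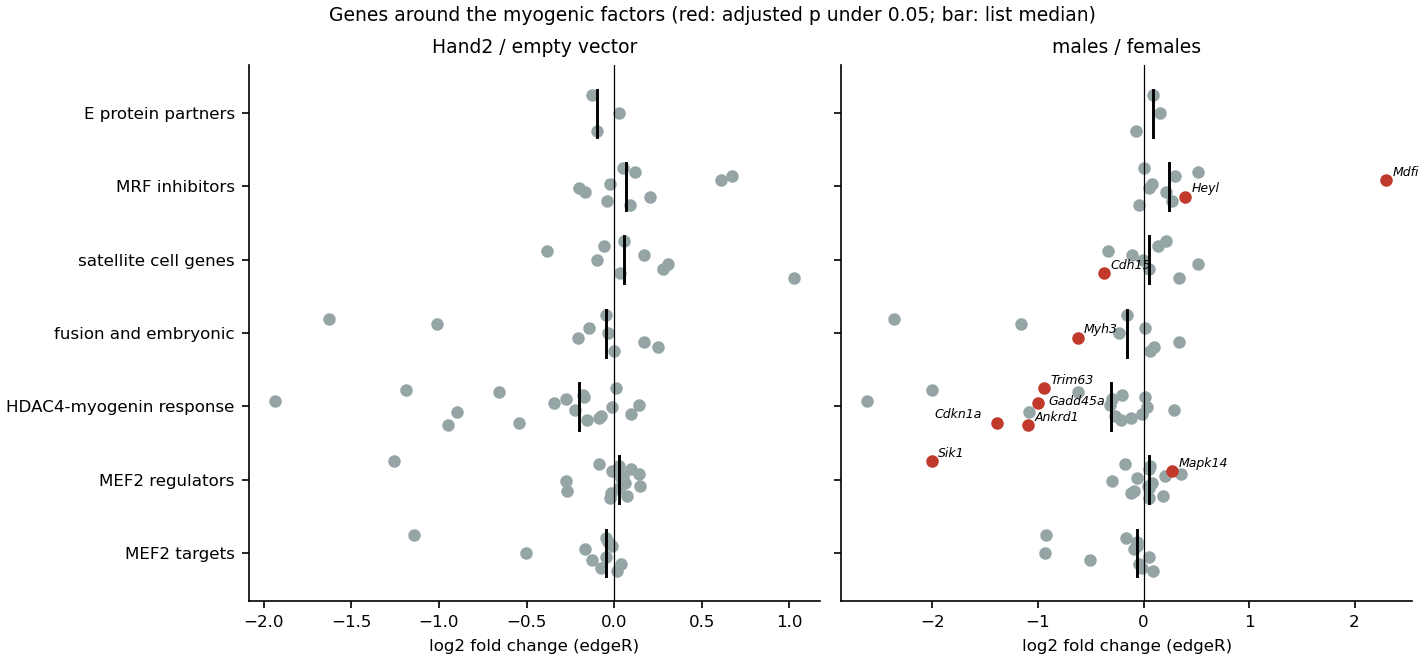
Log2 fold change of each measured gene of the 7 lists (points, horizontal axis) for Hand2 over empty vector and for males over females, with the list median as a bar and genes with an adjusted p under 0.05 in red and named. No point is red between the vectors, and 10 are between the sexes.

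The 8 genes did not move as 1 group from animal to animal. After removal of the 4 vector-by-sex means, none of 28 pairs passed adjustment by Pearson's r or Spearman's rho over the 17 animals. The strongest by r was Myod1 with Myf6, at -0.73 (permutation p = 0.00957, adjusted p = 0.268), with a rho of -0.57 (permutation p = 0.0366, adjusted p = 0.512) and an r of -0.53 without the 2 animals farthest from the median of Myod1. The strongest by rho was Myod1 with Pax7, at 0.76 (permutation p = 0.00703, adjusted p = 0.197), with an r of 0.57 (permutation p = 0.0959, adjusted p = 0.958) and 0.60 without 2 animals. Over all genes and the same 17 animals, the pattern most like that of Myog was that of Gjc1 (r = 0.80), then Ppp1r18, Ptpn9, Tuba1c and Psg29 (0.78 to 0.74). The genes most like the others were Slc6a2 for Pax7 (0.92), Ctsl for Myf6 (0.93), Cdc42bpa for Mef2a (0.93), St5 for Myod1 (0.88), Rbm14 for Mef2d (0.86), Kcnc1 for Mef2c (0.82) and Gm6249 for Myf5 (0.78). These were picked as the highest of 13965 genes and share libraries and depth, so they describe these animals only.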

How the data were processed

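EDL muscle RNA of 17 mice was made into libraries with TruSeq v2, per the labels. Reads were placed on mm10, per the submitters' processing notes; the sources used here name no aligner or counter and do not state whether strand was used. The authors deposited estimated counts per gene, not scaled for depth, which were rounded here, and 17 columns of normalized log2 values, also deposited by the authors, which were not used. A floor of 3 counts corresponds to 0.0967 to 0.157 CPM.

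Genes were kept by filterByExpr over the 4 vector-by-sex groups, scaled by TMM and compared by robust quasi-likelihood tests (edgeR 4.0.16 in R 4.3.3) with vector and sex as terms; within-sex effects and their difference came from a model with 4 groups. P-values were adjusted over 13965 genes by Benjamini-Hochberg at 0.05, and measure the spread between these animals. CPM are TMM-scaled, and the SE is the size of a log2 fold change over the root of F. Intervals cover what animals and counts show, and reads carried no molecular identifiers. The steps were tested on simulated counts. Alternatives used DESeq2 1.42.0, limma 3.58.1, other scaling, filter, terms or ages, and animals left out. Pair correlations used 100000 permutations within groups.

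Members and lists were chosen with earlier results of these data known. Named were all members, Hand2, those 3 or fewer genes of each list with the smallest p between vectors or between sexes, and the 3 genes (5 for Myog) most like each member. Chrna1 and Fbxo32 are named outside that rule, after their values were seen. A further list is not reported here. Promoters were matched for 6 of 8 members. Replicate numbers only name animals, in accession order.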

Additional observations from a re-analysis of the deposited data

Results flagged for a closer look

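The levels of each member were checked for a single animal far from the rest of its group, in 24 groups of 4 or 5 animals, of which chance alone would pick about 1 in 20. A pair stood out. Myf5 in Hand2 females had 1.36 CPM in replicate 5, the only one of 23 months, where the next animal had 1.84 CPM. Myf6 in empty-vector females had 214 CPM in replicate 5, where the next animal had 122 CPM; without it the log2 fold change of Myf6 in females was 0.27.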

How the results depend on the processing

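Log2 fold changes kept their direction and side of the threshold in 142 of the 166 values outside the fits that left out 1 animal, and in 528 of 578 within them. Counts of called genes were 1 over both sexes, 7 in females, 1 in males and 1276 between sexes (610 higher and 666 lower in males) with DESeq2, against 0, 0, 0 and 786 (406 and 380) with edgeR. Between sexes the count was 291 without the 3 empty-vector females of 23 months, a setting added for this comparison after the data were seen. Leaving out 1 animal gave 0 to 1 genes over both sexes, 0 to 1 in females, 0 to 2 in males and 476 to 952 between sexes. For the vector effect at 23 minus 22 months, added after the data were seen, edgeR called 53 genes, DESeq2 560, and fits without 1 animal 0 to 156. The Myog call between sexes also ended with no low-count filter (adjusted p = 0.0545).

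Most signs that turned belong to fold changes near 0; those of Pax7 were larger, at 0.25 over both sexes, 0.50 in females and -0.54 for male minus female effects with all animals. The cause was not tested. Over both sexes, animals of 22 months alone gave 0.039 for Myf5, 0.49 for Myf6, -0.17 for Pax7, 0.16 for Mef2a and 0.056 for Mef2d, and those of 23 months 0.061 for Myod1. Without a sex term Myf6 had 0.00045, and limma-voom gave 0.030 for Myf6 and -0.056 for Pax7. DESeq2 gave 0.0021 for Myog in males. Without the 3 females, Myf6 had 0.15 and Mef2d 0.019 over both sexes; Mef2a had 0.039, Mef2c 0.044 and Mef2d 0.018 in females; the difference between male and female effects was 0.11 for Myod1, -0.035 for Myf5 and -0.14 for Mef2a; and between sexes Myod1 had -0.011 and Mef2d 0.044.

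Leaving out 1 animal turned signs within these ranges. Over both sexes they were -0.082 to 0.11 for Myf6, -0.12 to 0.40 for Pax7 and -0.056 to 0.0038 for Mef2d. In females they were -0.093 to 0.27 for Myf6, -0.31 to 0.069 for Myod1, -0.20 to 0.83 for Pax7 and -0.051 to 0.032 for Mef2c. In males they were -0.44 to 0.30 for Myog, -0.23 to 0.071 for Myf6, -0.14 to 0.062 for Pax7 and -0.0068 to 0.064 for Mef2d. Male minus female effects ran from -0.014 to 0.18 for Mef2a, -0.047 to 0.21 for Myf5, -0.33 to 0.061 for Myf6, -0.31 to 0.071 for Myod1 and -0.88 to 0.16 for Pax7. Between sexes Mef2d ran from -0.038 to 0.028, and for vector effects at 23 minus 22 months Myog ran from -0.27 to 0.91.

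No paired analysis was possible because replicate numbers pair no animals. Every member passed the low-count filter, so the permutation test planned for those that miss it has no value. Among the members, low counts limit Pax7 and Myf5 most.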
